A study of Mus musculus with 7 samples.

Results

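This comparison takes mouse embryonic fibroblasts with a defective Mdm2 gene as 1 arm of 4 libraries and sets them against 3 libraries from fibroblasts whose only labelled change is the loss of p53. Every sample in the series is p53-deficient and of strain C57BL/6. The control arm is p53 KO (replicates 1, 2 and 3). The mutant arm joins 2 libraries of p53/Mdm2 KO cells, which lack both genes, with 2 libraries of p53 KO cells carrying the C462A knock-in substitution in Mdm2. Members were the 7 columns of the deposited expression table whose names match these genotypes, so the comparison uses all 7 samples of the series. Interest lay in genes for which all 4 mutant libraries were on 1 side of all 3 controls; 1631 of 16900 tested genes (9.65%) met that condition, out of 29955 gene rows. The study asked what Mdm2 does in cells that have no p53, with the Polycomb machinery in view. The sources used here do not give how the alleles were made, whether a group is 1 clone, or whether replicates are separate embryos or cultures. P-values therefore reflect only how far these particular samples scatter, some of which may be technical.

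Mdm2 is a RING-type ubiquitin ligase best known for marking p53 for degradation. The RING domain coordinates zinc through cysteine and histidine residues, and replacing one of those cysteines, as C462A does, removes the ligase activity while leaving a full-length protein. Mdm2 also binds chromatin regulators, among them Polycomb proteins, and cells without p53 allow its other roles to be looked at.

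Levels below are normalized reads, recovered from the deposited log2-like values, and are comparable between libraries for 1 gene but not between genes, since they are not divided by gene length. A difference is the mean deposited log2 value of the 4 mutant libraries minus that of the 3 controls, given with its standard error (SE). The gap is the distance on the same scale between the nearest libraries of the arms. Libraries held 28.5 M to 41.5 M reads, and a count of 0 allows up to 3 reads, or 2.65 to 3.86 normalized reads (counting error only). Where 4 mutant values stand in a row, they are p53/Mdm2 KO replicates 1 and 2 followed by Mdm2 C462A replicates 1 and 2. Mdm2 itself had 1575 and 2334 normalized reads in p53/Mdm2 KO against 1746 to 1994 in the controls, and 2033 and 2887 in Mdm2 C462A. The arms overlapped for Mdm2, for its partner Mdm4 (394 to 929 in the controls, 759.9 to 2156 in the mutants) and for Trp53, the gene of p53 (687 to 1396 and 1339 to 1775). The sources used here do not give which exons the knockouts remove, so gene totals check neither knockout, and a point substitution would leave them as they are.

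Some libraries stood apart from their arm. Limma gave each library a weight by how well it matched its arm. In these weights p53 KO replicate 1 received 0.209, Mdm2 C462A replicate 2 received 0.376 and p53/Mdm2 KO replicate 2 received 0.441, where an average library has 1. Both mutant genotypes formed 1 arm, so the weights cannot tell a library's own deviation from a difference between these genotypes. Y-linked genes had a mean deposited log2 value of 7.71 to 8.04 in Mdm2 C462A replicate 2, p53 KO replicate 2 and p53/Mdm2 KO replicate 1, and of 3.76 to 4.31 in the other 4 libraries, so each genotype holds libraries with many and with few Y-linked reads. Counts are given also without p53 KO replicate 1 and Mdm2 C462A replicate 2, the libraries with the lowest weights, called the outlying libraries below. Replicate 2 of p53/Mdm2 KO, with a weight not far above, was kept in those counts. Leaving out that library alone gave 1788 genes above all controls and 1769 below, against 808 and 823 with all libraries. Fibroblast markers were abundant in every library, with a summed level over 16 genes of 1080000 to 1909000 normalized reads in the controls and 695100 to 1234000 in the mutants. In bulk RNA, fewer cells of a type and less RNA per cell cannot be told apart.

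Among the 16900 tested genes, 808 (4.78%) lay higher in all 4 mutant libraries than in all 3 controls, and 823 (4.87%) lay lower. Most of these separations were narrow. The median gap was 0.10 on the log2 scale in each direction, and 395 of the higher and 399 of the lower genes had a gap under 0.1. At the edge of the rule, Rragc entered the higher set with a gap of 0.000262 and Steap1, with a signed distance of -5.72e-05, missed it. A gap of at least 1, a clear space of a doubling between the arms, was found for 6 genes in the higher direction (0.0355% of tested genes) and 10 in the lower (0.0592%). Limma's test over all genes called none at a Benjamini-Hochberg adjusted p under 0.05 (0.0% of tested genes), and voom on the recovered whole reads also called 0. At an unadjusted p under 0.05, limma had 636 genes higher (3.76%) and 691 lower (4.09%). Since the rule and the test use the same values, the separated genes are described here and their selection supports nothing by itself. Without p53 KO replicate 1 and Mdm2 C462A replicate 2, 2242 genes (13.3%) lay higher and 2365 (14.0%) lower, as fewer libraries have to be ordered.

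**Figure D1:**
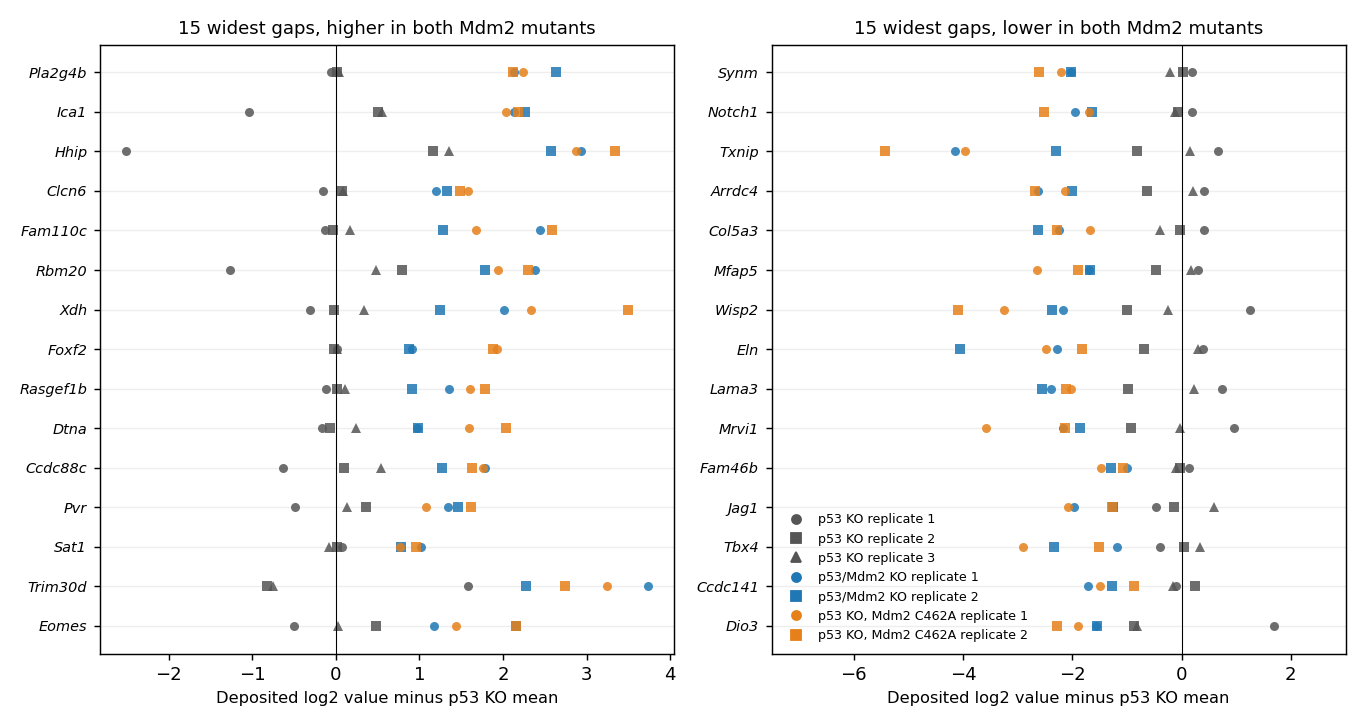
Deposited log2 value of each library minus the p53 KO mean (x axis) for the 15 named genes with the widest gap in each direction, with colour for genotype and symbol for replicate. Pla2g4b shows the widest gap above the controls, 2.07, and Synm the widest below, 1.81; single p53 KO libraries lie far out for Hhip, Trim30d and Dio3.

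The clearest separation upward was in Pla2g4b, a cytosolic phospholipase A2 gene. It had 103, 109 and 111 normalized reads in p53 KO, 535 and 767 in p53/Mdm2 KO and 580.4 and 530.1 in Mdm2 C462A. All 4 mutant libraries lay far above 3 tightly grouped controls, a 5.61-fold higher mean level and a difference of 2.28 (SE 0.189, limma adjusted p = 0.0672). Jmjd7, the gene directly upstream, which encodes a JmjC-domain hydroxylase and can be transcribed through into Pla2g4b, had 13.6, 8.35 and 5.39 against 65.9, 76, 84.2 and 54.7 normalized reads. The spans of the pair are adjacent without overlapping in RefSeq, but the sources used here do not give how reads of a run-through transcript were assigned, so their shared pattern is not counted as 2 observations.

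Clcn6, a chloride-proton exchanger of late endosomes, followed with 755, 894 and 896 normalized reads in p53 KO against 1968 and 2149 in p53/Mdm2 KO and 2577 and 2397 in Mdm2 C462A. The difference was 1.40 (SE 0.146, limma adjusted p = 0.112), and no mutant library came within 1.12 of a control. Sat1, which acetylates spermidine and spermine and so starts polyamine breakdown, was 1832, 1769 and 1641 in p53 KO and 2996 to 3551 over the mutant libraries. Its difference was smaller, 0.88, but its SE of 0.124 was among the lowest of the named genes. Pvr, an adhesion receptor of the nectin-like family, ranged from 1088 to 1975 in the controls to 3263 to 4740 in the mutants.

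Several wide gaps upward rest on low or spread values. Hhip, which encodes a membrane protein that binds Hedgehog ligands, had 1.82, 178 and 207 normalized reads in p53 KO, so that replicate 1 was under the 3-read floor while the mutants held 509 to 881. Ica1, a gene of a BAR-domain protein of secretory vesicles, was likewise low in p53 KO replicate 1, with 39.1, 148 and 154 normalized reads against 470.1 to 551 in the mutants. Rbm20, the splicing regulator of titin, had 3.64, 57.5 and 43.1 against 133 to 212. Removing the outlying control narrows the difference for all 3 without closing the gap, because the gap is set by the nearest control. Trim30d had 78.2, 3.71 and 4.31 in p53 KO and 139 to 415 in the mutants, and belongs to a family of similar genes whose reads may be split uncertainly.

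The 2 mutant genotypes did not always reach the same level. Foxf2, a forkhead factor of mesenchyme, had 40.9, 39.9 and 41 normalized reads in p53 KO, 91.8 and 88.8 in p53/Mdm2 KO and 206 and 198 in Mdm2 C462A. All mutants lay above the controls and both Mdm2 C462A libraries lay above both p53/Mdm2 KO libraries, with a difference between the mutants of 1.01 (SE 0.243, limma adjusted p = 0.9998). Xdh, the xanthine oxidoreductase of purine breakdown, showed the same order, with 134, 168 and 220.0 in p53 KO, 751 and 430.0 in p53/Mdm2 KO and 943 and 2127 in Mdm2 C462A. Over all tested genes the contrast between the mutants had 0 genes at an adjusted limma p under 0.05 and 503 (2.98%) at an unadjusted p under 0.05. Of the 808 higher genes 29 (3.59%) passed that unadjusted threshold, and of the 823 lower genes 36 (4.37%) did, so the separated genes were near the background in how often the mutants differed. The 2 mutant genotypes occupied ranges without overlap in 5558 tested genes (32.9%); their ranges overlapped in 532 (65.8%) of the higher and 526 (63.9%) of the lower genes, against 67.1% of all tested genes.

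Among the separated genes the Mdm2 C462A mean lay farther from the controls than the p53/Mdm2 KO mean in 562 of 808 (69.6%) higher and 597 of 823 (72.5%) lower genes. Over all tested genes it lay farther in 63.0% of those with a difference above 0 and in 59.5% of those below 0. Single libraries moved with that share. Replicate 2 of p53/Mdm2 KO was the mutant library nearest to the controls in 338 higher and 341 lower genes, and Mdm2 C462A replicate 2 was nearest in 132 and 117. With replicate 1 of each mutant genotype alone, Mdm2 C462A was farther in 460 (56.9%) of the higher and 459 (55.8%) of the lower genes, against 55.4% and 52.7% of all tested genes with a difference above and below 0. The part of the outlying libraries in the order of the genotypes was not tested further.

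The widest separation downward was in Synm, the gene of synemin, an intermediate filament protein of muscle and mesenchymal cells. It had 571, 505 and 427 normalized reads in p53 KO, 108 and 108 in p53/Mdm2 KO and 92.2 and 65.3 in Mdm2 C462A. All 4 mutant libraries were below all controls by at least 1.81 on the log2 scale, and the mean level was 5.37-fold lower (difference -2.22, SE 0.223, limma adjusted p = 0.112). Col5a3, a chain of fibrillar type V collagen, had 5333, 3962 and 3070 in p53 KO against 833, 634, 1245 and 810.5 in the mutants (difference -2.21, SE 0.27, limma adjusted p = 0.167). Fam46b had a tight pattern as well, 999.8, 893 and 849.9 in p53 KO and 318 to 448 in the mutants. Tbx4, a T-box factor of the hindlimb, had 111 to 198 normalized reads in the controls and 7.02 to 56.6 in the mutants.

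The Notch pathway was among the lists with the largest share of separated members. This and all other lists were chosen with earlier results of these data known, so their shares are described and support nothing by themselves. Notch receptors on one cell are cut when they bind Jagged or Delta ligands on a neighbour, and the released intracellular domain joins Rbpj and a Mastermind protein on DNA to switch on Hes, Hey and Nrarp genes. Of 25 listed genes 20 were tested; 7 (35.0%) lay below all controls in all mutants, 1 (5.0%) lay above and 12 overlapped. Among all tested genes 4.87% lay below and 4.78% above. The median difference of the list was -0.31, against -0.00198 over all tested genes. Of the 20, 9 (45%) lay below and 1 above once the outlying libraries were left out, where 14.0% of all tested genes lay below, with a median of -0.21. No member passed limma's adjusted threshold.

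Among the receptors, Notch1 had 2712, 2258 and 2172 normalized reads in p53 KO, 598 and 749 in p53/Mdm2 KO and 719 and 396 in Mdm2 C462A. Both genotypes lay well below the controls, at a mean 3.87-fold lower (difference -1.95, SE 0.236, limma adjusted p = 0.167). The difference was -1.66 when the outlying libraries were left out (limma adjusted p = 0.0769; 0.0118 to 0.746 over all alternatives). Notch2 overlapped between the arms, with 4304 to 6443 in the controls and 5132 to 6628 in the mutants. Notch3 also overlapped, with 892, 308 and 986 in p53 KO, 212 and 74.7 in p53/Mdm2 KO and 309.7 and 362 in Mdm2 C462A, because p53 KO replicate 2 was as low as the mutants.

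The ligand gene Jag1 had 3359, 4201 and 7019 normalized reads in p53 KO, 1169 and 1925 in p53/Mdm2 KO and 1076 and 1912 in Mdm2 C462A. The controls varied by more than a doubling among themselves, yet the lowest of them stayed 0.80 above the highest mutant (difference -1.64, SE 0.322, limma adjusted p = 0.546). Of the DNA-bound partners, the coactivator gene Maml2 was 1493 to 2766 in the controls and 1042 to 1190 in the mutants. Rbpj was the 1 member on the other side, with 4395, 8555 and 6264 in p53 KO against 9248, 11590, 9601 and 9286 in the mutants.

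Of the 5 tested target genes 4 lay below all controls. Hey1, a transcriptional repressor, had 86.3, 118 and 291 normalized reads in p53 KO, 26 and 33.5 in p53/Mdm2 KO and 19 and 56.5 in Mdm2 C462A (difference -1.72, SE 0.422). Nrarp, a feedback inhibitor of the Notch complex, had 51.8, 36.2 and 73.3 in p53 KO against 12.1, 14.2, 11 and 3.53. Heyl was unread in all 4 mutant libraries and had 0.909, 26 and 178 in p53 KO, where replicate 1 was itself under the 3-read floor, so only replicates 2 and 3 carry its separation. Hes1, read more deeply, was 1759 to 1970 in the controls and 590.0 to 1576 in the mutants, a difference of -0.72, with both Mdm2 C462A libraries (1157 and 590.0) the lowest. Hey2 overlapped, with 58.2, 118 and 137 in p53 KO against 29.7, 57.9, 19 and 278, the highest value being in Mdm2 C462A replicate 2.

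**Figure D2:**
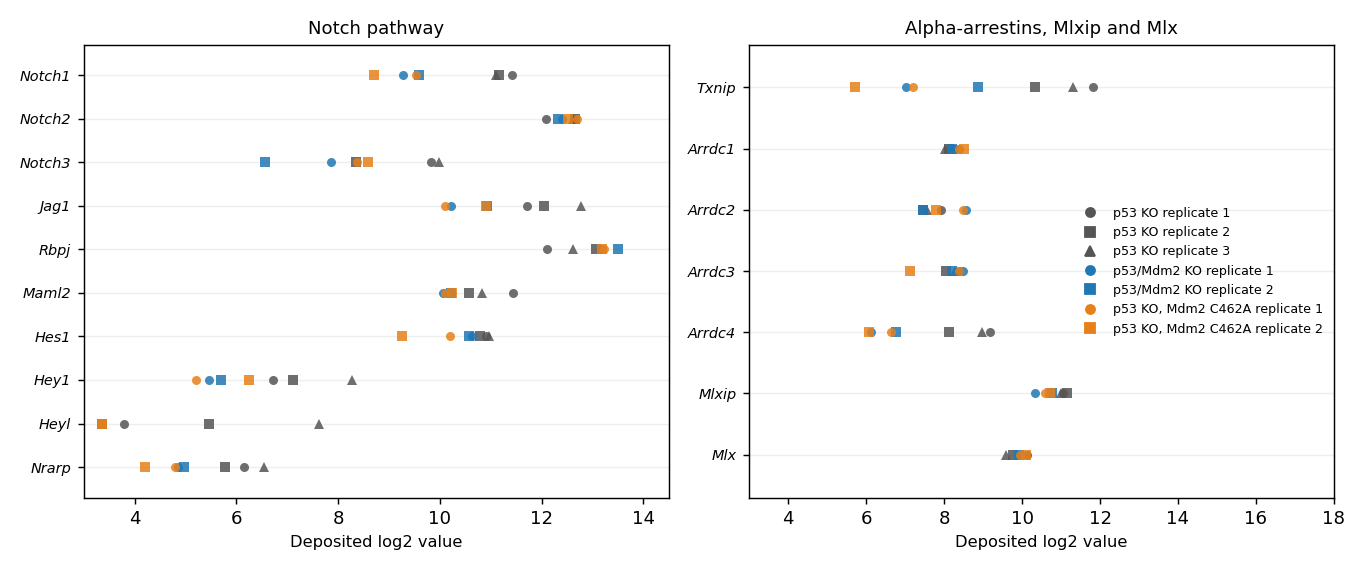
Deposited log2 value (x axis) in each of the 7 libraries for 10 Notch pathway genes and for 5 alpha-arrestin genes with Mlxip and Mlx, with colour for genotype and symbol for replicate. Notch1, Jag1, Hey1, Nrarp, Txnip and Arrdc4 show all 4 mutant libraries to the left of all 3 controls, while Notch2, Notch3, Arrdc1, Arrdc2, Arrdc3 and Mlx overlap.

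Txnip and Arrdc4 came next after Synm and Notch1 in the width of their gap among the named genes that lay lower. They encode alpha-arrestins, adaptor proteins that draw membrane transporters such as glucose carriers into the cell, and both are textbook targets of the glucose-sensing factor pair Mlxip and Mlx. Txnip, whose product also binds thioredoxin, had 3598, 1279 and 2504 normalized reads in p53 KO, 109.5 and 447 in p53/Mdm2 KO and 127 and 34.4 in Mdm2 C462A. The mutants spread widely and still lay below every control, by 1.48 at the nearest (difference -3.95, SE 0.707, limma adjusted p = 0.546). Arrdc4 was tighter, with 559.9, 261 and 483 in p53 KO, 51 and 88.8 in p53/Mdm2 KO and 80.2 and 48.5 in Mdm2 C462A (difference -2.36, SE 0.321, limma adjusted p = 0.284). Mlxip itself lay slightly lower, 2030 to 2253 in the controls and 1272 to 1724 in the mutants, with a difference of -0.46. Arrdc1, Arrdc2, Arrdc3 and Mlx overlapped, so 3 of 7 tested members of this list (42.9%) lay lower and none higher. Like the other lists, this one was chosen with earlier results of these data known. With all libraries 4.87% of all tested genes lay lower and 4.78% higher. Without the outlying libraries 3 of the 7 lay lower and 2 (28.6%) higher, against 14.0% and 13.3% of all tested genes.

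Genes of the lysosome lay higher where they separated. Lysosomes are acidified by a proton pump, the vacuolar ATPase, and factors of the Tfeb family, which bind the E-box-type letters CACGTG, switch on lysosomal genes together. Of 36 tested lysosome and autophagy genes 7 (19.4%, against 4.78% of all tested genes) lay above all controls in all mutants. Another 29 overlapped and 0 lay below, with a median difference of 0.31 over the list. Leaving out the outlying libraries gave 7 above (19.4%) and 2 below, with a median of 0.33. In that setting 13.3% of all tested genes lay above, so the share of the list was much nearer to the background than with all libraries. Mcoln1, the lysosomal calcium channel, had 1631, 1344 and 1500 normalized reads in p53 KO, 3101 and 1863 in p53/Mdm2 KO and 3729 and 4584 in Mdm2 C462A. Its lowest mutant, p53/Mdm2 KO replicate 2, was near the controls, and the difference was 1.07 (SE 0.292, limma adjusted p = 0.623). The pump subunit genes Atp6v1a and Atp6v1h had differences of 0.63 (SE 0.207) and 0.53 (SE 0.141).

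Lamp1, the main lysosomal membrane glycoprotein, had 41210, 37670 and 48600 normalized reads in p53 KO, 69740 and 50150 in p53/Mdm2 KO and 80480 and 54290 in Mdm2 C462A. The highest control and the lowest mutant were only 0.05 apart. Sqstm1, the autophagy cargo receptor, and Gpnmb, a transmembrane glycoprotein of lysosomes and melanosomes, had gaps of 0.02 and 0.07 and large single libraries, 12260 to 35790 over the mutants for Sqstm1 and 5680 to 26240 for Gpnmb. Uvrag, a component of the complex that starts autophagosome formation, was 1510 to 1694 in the controls and 1858 to 2455 in the mutants.

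**Figure D3:**
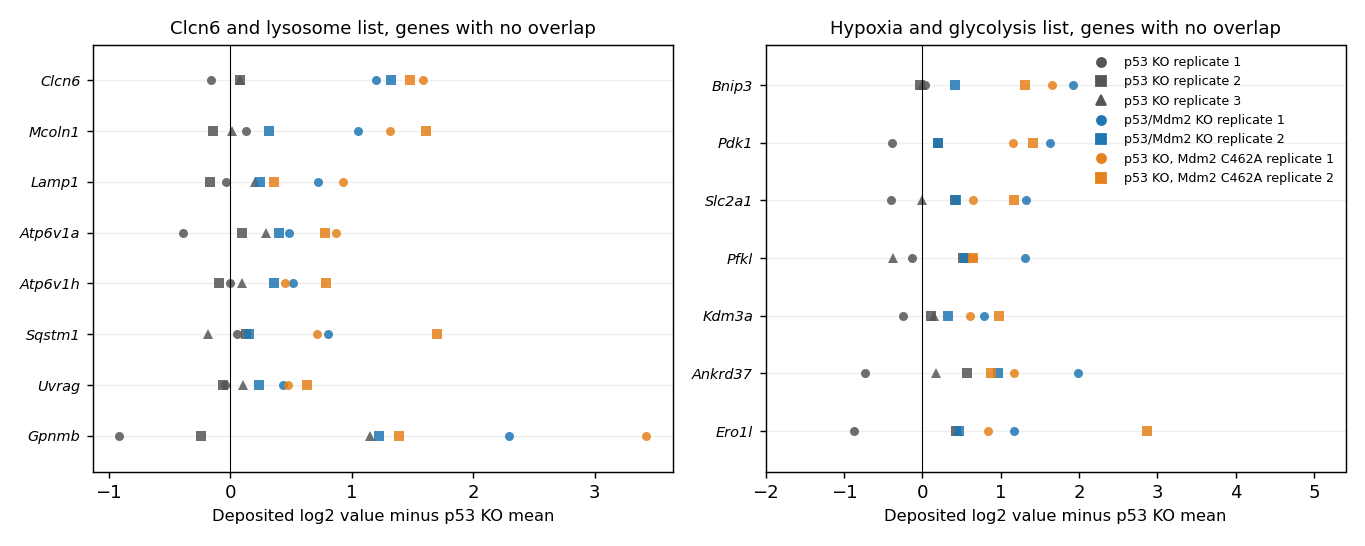
Deposited log2 value of each library minus the p53 KO mean (x axis) for Clcn6 with the 7 separated genes of the lysosome list and for the 7 separated genes of the hypoxia list, with colour for genotype and symbol for replicate. Clcn6 keeps a gap of 1.12, whereas for Lamp1, Sqstm1, Gpnmb, Pdk1, Slc2a1, Pfkl and Ero1l the p53/Mdm2 KO replicate 2 library lies close to the highest control.

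The letters CACGTG were searched in the 250 bases before the start of each gene in RefSeq promoters of build GRCm38.p6, which held 11713 of the 16900 tested genes. They read the same on both strands. They were present in 9.62% of these promoters, in 83 of 560 (14.8%) promoters of genes that lay higher and in 45 of 603 (7.46%) of those that lay lower. Lysosome genes held them in 9 of 27 tested promoters (33.3%). Of these genes, Ctsa, Ctsd, Ctsf, Ctsl, Gaa and Gla were not separated. Among the 6 separated lysosome genes with a promoter, 3 held the letters, Mcoln1, Lamp1 and Atp6v1a. The stretches nearest to the start are shown for these 3 genes and for Clcn6, 5′ to 3′ on the gene's strand with CACGTG in capitals; Arrdc4, which lay lower, is shown because its promoter holds the same letters.
Clcn6, chr4:148038814-148038933 (minus strand): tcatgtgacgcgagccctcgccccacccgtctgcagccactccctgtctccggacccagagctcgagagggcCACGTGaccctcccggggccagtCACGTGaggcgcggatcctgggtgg
Mcoln1, chr8:3500399-3500518 (plus strand): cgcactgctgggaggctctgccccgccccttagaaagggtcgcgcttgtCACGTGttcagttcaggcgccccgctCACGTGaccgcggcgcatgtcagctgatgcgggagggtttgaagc
Lamp1, chr8:13159041-13159160 (plus strand): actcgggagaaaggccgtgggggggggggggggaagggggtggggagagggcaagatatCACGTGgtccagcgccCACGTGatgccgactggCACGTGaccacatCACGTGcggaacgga
Atp6v1a, chr16:44139260-44139409 (minus strand): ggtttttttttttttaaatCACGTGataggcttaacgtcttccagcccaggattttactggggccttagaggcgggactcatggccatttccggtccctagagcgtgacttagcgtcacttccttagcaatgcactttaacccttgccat
Arrdc4, chr7:68749239-68749438 (minus strand): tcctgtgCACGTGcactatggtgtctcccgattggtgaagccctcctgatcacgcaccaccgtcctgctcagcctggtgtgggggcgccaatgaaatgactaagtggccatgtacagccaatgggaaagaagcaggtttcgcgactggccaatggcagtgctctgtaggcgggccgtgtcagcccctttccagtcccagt
The match begins 48 and 25 bases before the start in Clcn6, 71 and 45 in Mcoln1, 131 in Atp6v1a and 193 in Arrdc4. Lamp1 holds 4 copies, at 61, 45, 28 and 15 bases. A match is a description of the letters, and the same letters stand before genes that lay higher and genes that lay lower.

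Hypoxia and glycolysis genes also lay higher where they separated. Cells short of oxygen stabilise Hif factors, which raise glucose uptake, glycolysis and mitophagy genes. Of 39 tested members 7 (17.9%, against 4.78% of all tested genes) lay above all controls and 0 below, with a median difference of 0.46. This became 13 above (33.3%, against 13.3% of all tested genes) and 0 below, with a median of 0.38, without the outlying libraries. Bnip3, a mitophagy receptor, had 622, 595 and 605 normalized reads in p53 KO, 2350 and 816 in p53/Mdm2 KO and 1948 and 1540 in Mdm2 C462A. The 3 controls lay close together and p53/Mdm2 KO replicate 2 was the lowest mutant (difference 1.32, SE 0.338, limma adjusted p = 0.623).

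The kinase gene Pdk1, which holds pyruvate back from the mitochondria, had 402, 609.8 and 609 normalized reads in p53 KO against 1678, 614, 1211 and 1446 in the mutants, a gap of 0.01. The glucose carrier gene Slc2a1 was 2633, 4656 and 3472 in p53 KO, 8775 and 4684 in p53/Mdm2 KO and 5450 and 7878 in Mdm2 C462A. Pfkl, the liver-type phosphofructokinase, had 2029 to 3814 in the controls and 3863 to 6585 in the mutants. In each of these 3 genes p53/Mdm2 KO replicate 2 was level with the highest control and the other mutants were above it. Ero1l, an oxidase of the endoplasmic reticulum, had a gap of 0.02 and its highest value, 4907 to 26010 over the mutants, in Mdm2 C462A replicate 2. Kdm3a, a histone demethylase, and Ankrd37 completed the 7, with differences of 0.68 and 1.25.

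Genes of the extracellular matrix lay mostly lower where they separated. Fibroblasts secrete fibrillar collagens, elastin on a microfibril scaffold and the basement membrane chains that join them. Of 31 tested collagen genes 7 (22.6%) lay below all controls and 2 (6.45%) above, with a median difference of -0.38. Of 36 tested elastic fibre and basement membrane genes 7 (19.4%) lay below and 0 above, with a median of -0.41. The shares of all tested genes were 4.87% below and 4.78% above. Without the outlying libraries the counts were 15 below (48.4%) and 3 above for collagens and 14 below (38.9%) and 1 above for the elastic fibre list, where 14.0% of all tested genes lay below. Leaving out single libraries moved the collagen median between -1.02 and 0.03, the latter without p53 KO replicate 3, so the sign of that median rests on 1 library. Relative to the control mean, the lowest collagen level was in a control, p53 KO replicate 1 (-0.77), against -0.75 to -0.01 in the mutants. For the elastic fibre list that control was at -0.41, within the mutant range of -0.57 to -0.14. It is 1 of the outlying libraries left out above.

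Eln, the gene of elastin, had 6802, 3239 and 6400 normalized reads in p53 KO, 1053 and 296 in p53/Mdm2 KO and 920.2 and 1462 in Mdm2 C462A. Every mutant was at less than the lowest control, with p53/Mdm2 KO replicate 2 the lowest of all (difference -2.66, SE 0.536, limma adjusted p = 0.567). Mfap5, a microfibril glycoprotein, had 1440, 836 and 1325 in p53 KO against 349, 354, 169 and 299.9 in the mutants. The crosslinking oxidase genes Lox and Loxl1, which join elastin and collagen chains, had differences of -0.85 (SE 0.274) and -0.89 (SE 0.31). Of basement membrane genes, Lama3, a laminin chain, had 52 to 214 in the controls and 7.72 to 17 in the mutants, and Nid2 and the perlecan gene Hspg2 had differences of -0.95 and -0.67.

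Col1a1 and Col3a1 encode the main fibrillar collagens of connective tissue. Col1a1 had 458000, 532800 and 689100 normalized reads in p53 KO, 392300 and 188000 in p53/Mdm2 KO and 384400 and 224900 in Mdm2 C462A. Col3a1 had 166700, 98190 and 166400 against 96700, 28420, 76170 and 64620, and p53 KO replicate 2 came within 0.02 of the highest mutant. Col6a3, Col10a1, Col18a1 and Col27a1 lay lower too, with differences of -1.30, -2.56, -2.17 and -1.53; Col4a3 and Col11a2, both weakly read, lay higher by 0.74 and 0.76. In the matricellular list 3 of 29 tested genes (10.3%, against 4.87% of all tested genes) lay below and 0 above. Wisp2, a CCN family member, had 13970, 2932 and 4955 in p53 KO against 1286, 1118, 601 and 326, with p53 KO replicate 1 far above the other controls. Thbs4, a thrombospondin, had 3545, 29.7 and 87.4 in p53 KO against 4.64, 2.58, 13 and 12.3, with replicate 1 far above both other controls, and a difference of -3.50 that was -1.62 without that library.

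Genes of the contractile apparatus lay lower where they separated. Serum response factor and its Mrtf cofactors bind the CArG box, a run of A and T between CC and GG, in many of these genes when actin polymerises. Of 27 tested smooth muscle and actin contractile genes 6 (22.2%, against 4.87% of all tested genes) lay below all controls and 0 above. The median difference was -0.51. With the outlying libraries left out, 15 (55.6%, against 14.0% of all tested genes) lay below. Of these libraries, p53 KO replicate 1 had a mean level of -0.65 over the list, relative to the control mean. That was below both p53/Mdm2 KO libraries (-0.49 and -0.13) and above both Mdm2 C462A libraries (-1.08 and -0.89). Myl9, a myosin regulatory light chain, had 19670, 17740 and 24890 normalized reads in p53 KO, 8611 and 12820 in p53/Mdm2 KO and 5275 and 3088 in Mdm2 C462A. Both genotypes lay below the controls and Mdm2 C462A lay below p53/Mdm2 KO, with a difference between the mutants of -1.38 (SE 0.34, limma adjusted p = 0.9998). Tpm2, a tropomyosin, had 25640, 19310 and 21340 in p53 KO against 13020, 18720, 8815 and 7336, and Csrp1, a LIM protein of actin filaments, differed by -0.68 (SE 0.203). With Synm, the calponin gene Cnn2 and Tpm1 made up the 6.

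A CArG box stood in 1.46% of the 11713 promoters and in 5 of 22 (22.7%) promoters of tested contractile genes, Cnn2, Ldb3, Myl9, Srf and Vcl. Myl9 is shown because it is the separated contractile gene with the wider gap of those that have a box. The box is in capitals and begins 161 bases before the start.
Myl9, chr2:156775264-156775463 (plus strand): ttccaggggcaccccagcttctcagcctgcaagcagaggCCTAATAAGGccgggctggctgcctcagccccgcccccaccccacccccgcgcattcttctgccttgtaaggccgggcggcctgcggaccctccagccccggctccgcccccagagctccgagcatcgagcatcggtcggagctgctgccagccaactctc
Of these 5 genes, Cnn2 and Myl9 were separated between the arms.

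Cell cycle genes lay lower where they separated, and their level was lowest in Mdm2 C462A replicate 2. Mitosis genes are switched on together late in the cycle. How many cells divided was not tested here. Of 30 tested mitosis genes 12 (40%, against 4.87% of all tested genes) lay below all controls and 0 above. All 30 differences were below 0, and the median difference was -0.83. Plk1, a mitotic kinase, had 3546, 3805 and 3625 normalized reads in p53 KO, 2378 and 2853 in p53/Mdm2 KO and 1954 and 896 in Mdm2 C462A. Mki67, the gene of the Ki-67 antigen, had 13740, 17440 and 15830 against 9711, 12160, 8835 and 3053. Mdm2 C462A replicate 2 was the lowest library in both. The mean level of the 30 genes relative to the controls was -0.50 and -0.09 in p53/Mdm2 KO and -0.77 and -1.75 in Mdm2 C462A, while single controls lay between -0.09 and 0.14. Without p53 KO replicate 1 and Mdm2 C462A replicate 2 the median was -0.38 and 14 of 30 (46.7%) lay below, against 14.0% of all tested genes.

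Of 42 tested DNA replication genes 6 (14.3%, against 4.87% of all tested genes) lay below and 0 above, with a median of -0.55. Ccne1, cyclin E1, which drives entry into S phase, had 2180, 2259 and 2269 normalized reads in p53 KO against 1041, 1680, 1184 and 391 in the mutants. Rrm1, the large subunit of ribonucleotide reductase, had 11240, 11190 and 11360 against 8142, 9955, 6923 and 6029, a narrow band of controls above all mutants. Gins3, Tyms, Lig1 and Rpa2 were the others. Without the outlying libraries the median was -0.09, with 6 (14.3%) below and 1 above, a share equal to the background of that setting (14.0% below).

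**Figure D4:**
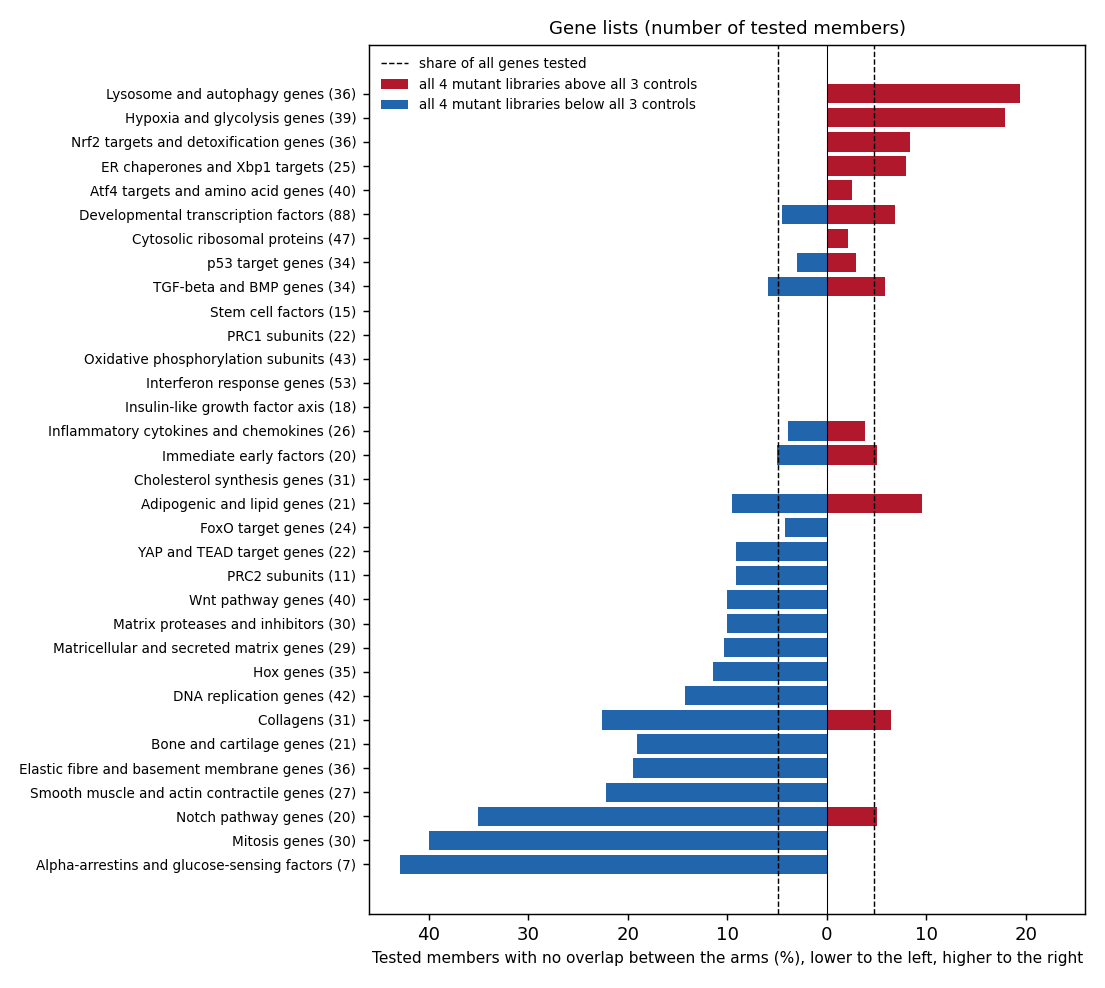
Share of tested members (x axis, percent) whose 4 mutant libraries all lie above (right) or all below (left) the 3 controls, for each gene list, with the number of tested members in brackets; the dashed lines mark 4.78% and 4.87%, the shares over all tested genes. Lysosome and hypoxia genes reach 19.4% and 17.9% on the right, and mitosis and Notch genes 40% and 35.0% on the left. The lists were chosen with earlier results of these data known.

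Polycomb complex PRC2 methylates histone H3 at lysine 27 and complex PRC1 ubiquitinates histone H2A, and Hox and other developmental regulators are their best known targets. Of 11 tested PRC2 genes 1 (9.09%, against 4.87% of all tested genes) lay below all controls and 0 above, with a median difference of -0.09. Eed, the subunit that reads the mark, had 1614, 1468 and 1398 normalized reads in p53 KO against 1283, 1330, 1205 and 1136 in the mutants, a difference of -0.27 with a gap of 0.07. The catalytic subunit gene Ezh2 overlapped, with 1761 to 2171 in the controls and 1066 to 2397 in the mutants, as did Suz12. Of 22 tested PRC1 genes 0 were separated, with a median difference of -0.12. Without the outlying libraries 3 PRC2 genes (27.3%) lay above and 2 (18.2%) below, and the PRC2 median turned to 0.06. In the same setting 3 PRC1 genes (13.6%) lay above and 0 below, with a median of -0.12, against 13.3% of all tested genes above and 14.0% below.

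Of 35 tested Hox genes 4 (11.4%, against 4.87% of all tested genes) lay below all controls and 0 above. Even so, the median difference was 0.18. The 4 were Hoxa10, Hoxa13, Hoxd11 and Hoxd13, genes of the 5′ ends of their clusters. Hoxd13 had 7985, 704 and 753 normalized reads in p53 KO, 281 and 646 in p53/Mdm2 KO and 183 and 198 in Mdm2 C462A. Replicate 1 of the controls was far above the other libraries, and the gap between the nearest libraries was 0.12. Without the outlying libraries 11 Hox genes (31.4%, against 14.0% of all tested genes) lay below and 2 above, with a median of -0.56, so the list changed sign with these libraries. Of 88 tested developmental transcription factors 6 (6.82%) lay above and 4 (4.55%) below, close to the background, and without the outlying libraries 13 (14.8%) lay above and 7 (7.95%) below. Eomes, a T-box factor, had 21.8, 59.4 and 38.8 against 108, 230.5, 133 and 232, and Emx2, a homeobox factor, 175, 576 and 615 against 928, 799.5, 897 and 880.2.

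Stress and lipid lists had high medians, with separated shares of 0.0% to 8.0% above, against 4.78% of all tested genes. The Atf4 list had a median of 0.65 with 1 of 40 genes separated, Atf3, at 98.2, 163 and 89.5 normalized reads in p53 KO, 426 and 222 in p53/Mdm2 KO and 289 and 3680 in Mdm2 C462A. The endoplasmic reticulum chaperone list had a median of 0.60 with 2 of 25 separated, Hspa5 and Hsp90b1. Hspa5, the chaperone BiP, had 41540, 54600 and 37780 against 62450, 55090, 59700 and 359000. Mdm2 C462A replicate 2 stood far above every other library in these lists, and without it and p53 KO replicate 1 the medians were 0.08 in each list. Leaving out single libraries, the Atf4 median was lowest without p53 KO replicate 1 (0.32). The chaperone median was lowest without Mdm2 C462A replicate 2 (0.11). Cholesterol synthesis genes had 31 of 31 differences above 0, a median of 0.77 and 0 separated members, since replicate 2 of both mutant genotypes had mean levels within the range of the controls. Interferon response genes had 0 of 53 separated and a median of -0.39, with p53/Mdm2 KO replicate 2 alone at a mean level of -2.43. Without p53/Mdm2 KO replicate 2 that median was 0.34.

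**Figure D5:**
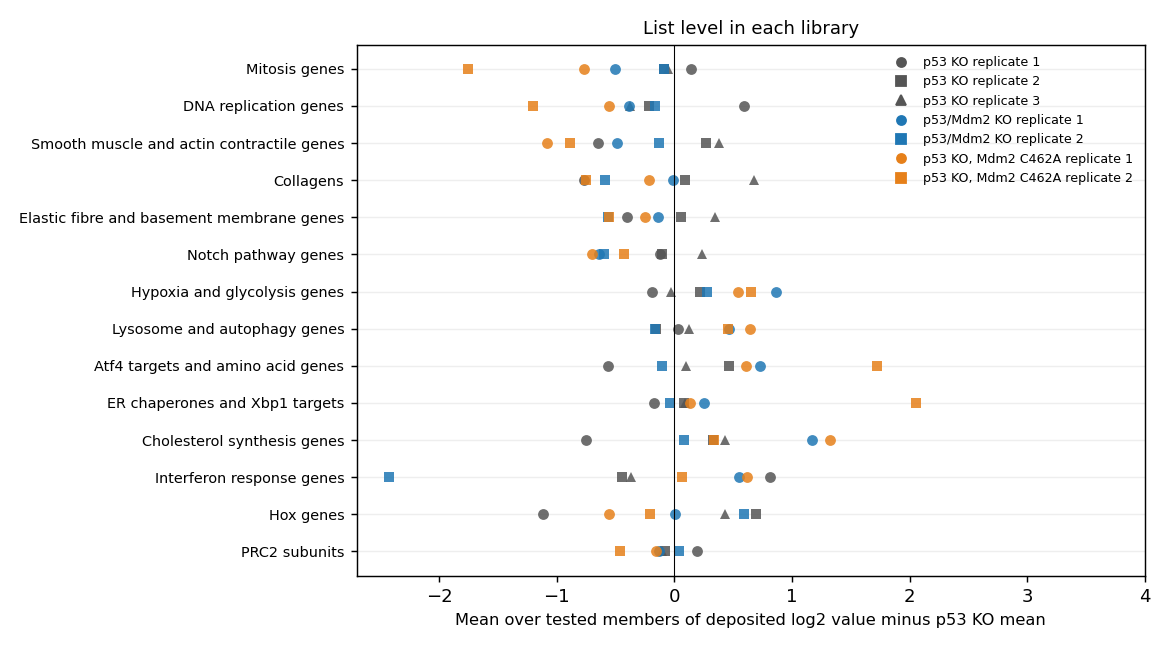
Mean over the tested members of each list of the deposited log2 value minus the p53 KO mean (x axis), 1 point per library, with colour for genotype and symbol for replicate. Of the lists plotted, Notch genes have all 4 mutants (-0.70 to -0.43) left of all controls (-0.12 to 0.23). Hypoxia and glycolysis genes have all 4 (0.28 to 0.86) right of all controls (-0.19 to 0.22). Mdm2 C462A replicate 2 stands alone in the endoplasmic reticulum list (2.05) and p53/Mdm2 KO replicate 2 in the interferon list (-2.43).

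The counts in other signalling and housekeeping lists depended on which libraries were used; over all tested genes 4.78% lay above and 4.87% below with all libraries, and 13.3% and 14.0% without the outlying ones. Among 40 tested Wnt genes 4 (10.0%) lay below and 0 above (9 and 1 without the outlying libraries), among them Rspo2 and Rspo3, secreted amplifiers of Wnt signals, and the receptor gene Fzd4. Rspo2 had 8743, 1637 and 2617 normalized reads in p53 KO against 618, 1098, 871 and 509, and Fzd4 1406, 913 and 1001 against 529, 498, 678 and 454. Among 34 tested TGF-beta and BMP genes 2 (5.88%) lay above, Tgif1 and Smad1, and 2 below, Smad3 and Tgfb2 (4 and 6 without the outlying libraries). Among 36 tested Nrf2 and detoxification genes 3 (8.33%) lay above and 0 below, and 12 (33.3%) and 1 without the outlying libraries. The 3 were Xdh, Gsta3 and the heme oxygenase gene Hmox1, which had 4324, 2522 and 2303 against 5033, 4607, 8258 and 9277. Gsta3 had 0, 0.928 and 1.08 against 15.8, 2.58, 7.02 and 66.2. For Gsta3 all controls and p53/Mdm2 KO replicate 2 were under the 3-read floor, so its separation there is not resolved by depth. Of 34 tested p53 target genes, 1 (2.94%) lay above, Pmaip1, and 1 below, Phlda3, and without the outlying libraries 1 and 3. Phlda3, an inhibitor of Akt, had 2010, 1656 and 1827 in p53 KO, 1018 and 1133 in p53/Mdm2 KO and 646 and 562 in Mdm2 C462A (difference -1.16, SE 0.265). Oxidative phosphorylation subunits, insulin-like growth factor genes and stem cell factors had 0 separated of 43, 18 and 15 tested, and ribosomal proteins had 1 of 47 (2.13%), above. Without the outlying libraries 13 of the 47 ribosomal genes (27.7%) lay above and 0 below, 5 of the 43 oxidative phosphorylation genes (11.6%) above and 0 below, 5 of the 18 insulin-like growth factor genes (27.8%) below and 0 above, and 2 of the 15 stem cell factors (13.3%) above and 0 below.

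Markers of other cell types were read next to fibroblast markers. Mesothelial markers summed to 2639 to 13390 normalized reads in the controls and 3514 to 46720 in the mutants over 8 genes, none of them at or under 3 reads in every library. Epithelial markers summed to 473.5 to 1086 and 408.0 to 2532 over 11 genes, with the keratin gene Krt5 at or under 3 reads in every library. Adipocyte markers summed to 7383 in p53 KO replicate 1 and to 172.6 to 365.1 in all other libraries, with Plin1, Lep and Cfd at or under 3 reads in every library. Neural and glial markers, 11 genes, summed to 3581 to 9544 in the controls and 1439 to 2423 in the mutants, with Rbfox3 and Olig2 at or under 3 reads in every library; Mtap2, also known in other cells, made up most of that sum in every library but p53/Mdm2 KO replicate 1, and the sums of the arms did not overlap. The sums of the endothelial, leukocyte, skeletal muscle and erythroid lists overlapped between the arms, as did those of the fibroblast, mesothelial, epithelial and adipocyte lists. Their part in the results was not tested.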

How the data were processed

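TruSeq libraries of total RNA from all 7 samples were read as single reads, per the labels' protocols. The submitters' processing notes name build mm9 and the tools Bowtie2 2.1.0, CASAVA 1.8.2 and DESeq 1.14.0 with no roles. How reads were counted, on which annotation and with what strand rule is not given in the sources used here. The deposited table has 29955 gene rows of log2-like values, made by the authors with a variance-stabilizing transformation as far as the values show. A gene without reads is at 3.36 in each sample. Inverting the transformation gave normalized reads, and 100% of the values were whole reads after division by 1 step per sample (tolerance 0.05). The design had foreseen linear or log2 values; as they were log2 values, limma 3.58.1 in R 4.3.3 was fitted to them directly, and edgeR and DESeq2 were not run.

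The fit had 2 arms, a variance trend and 5 residual degrees of freedom, over 16900 genes with a mean of at least 10 normalized reads; p-values were two-sided with Benjamini-Hochberg adjustment over all of them. The mutants were compared in a fit with 3 group means (4 residual degrees of freedom). The scale understates changes of weakly read genes. Of the rest, 5875 genes had reads below the minimum mean, with no overlap in 127 (higher) and 101 (lower), and 7180 had none. The fit was tested on simulated data. Named were the 15 widest gaps in each direction among genes with a mean of at least 100 normalized reads in the higher arm, leaving out unnamed transcripts, up to 4 separated members of each of 44 gene lists, Mdm2, Mdm4 and Trp53, and 25 genes chosen after their values were seen. Members and lists were chosen with earlier results of these data known. Alternatives covered the transformation, filter, scaling, variance model, sample weights, voom on whole reads, a Y-linked covariate, a replicate block and leaving out libraries. Promoters came from RefSeq (GRCm38.p6) and were matched by symbol or older symbol.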

Additional observations from a re-analysis of the deposited data

Results flagged for a closer look

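Among 125 named genes, 8 had 1 of the 4 mutant libraries so far from the other 3 that the distance to the nearest of them took up more of their range on the deposited scale than Dixon's critical value for 4 samples allows. Chance flags about 1 in 20 groups. Mdm2 C462A replicate 2 stood above the rest for the chaperone genes Hspa5 (0.933 of the range; 62450 and 55090, then 59700 and 359000 normalized reads) and Hsp90b1 (0.907; 79800 and 69210, then 73930 and 322600) and for Dgat2, a triglyceride synthesis enzyme (0.912; 244 and 239.5, then 228 and 473), and below the rest for the early response factor Egr2 (0.89; 131 and 118, then 116 and 40.6). In p53/Mdm2 KO replicate 1, Pfkl was high (0.863). In p53/Mdm2 KO replicate 2, the Notch cofactor gene Rbpj (0.834), the perlecan gene Hspg2 (0.879) and the PRC2 subunit gene Suz12 (0.879) were high. Rbpj, Pfkl, Hspg2, Hspa5, Hsp90b1, Dgat2 and Egr2 still lay on 1 side of all controls, and Suz12 overlapped them.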

How the results depend on the processing

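The sign of the difference was checked for 126 named genes over 20 alternative settings. It changed for 4 of them, all genes whose arms overlap. Separated genes outside the 126, such as Cnn2, Tpm1, Lig1 and Rpa2, were not part of this check. Separation itself was less stable than the sign. With equal medians 727 of the 808 higher and 621 of the 823 lower genes stayed separated. With quantile normalization 607 and 618 did, and with log2 of normalized reads plus 1 all did. Mdm2 turned from 0.19 to -0.0942 with sample weights. Notch2 turned from 0.04 to -0.10 with sample weights, -0.16 without p53 KO replicate 1 and Mdm2 C462A replicate 2, and spanned -0.14 to 0.15 without single libraries. Arrdc3 turned from -0.19 to 0.20 with sample weights, 0.19 without both libraries, and spanned -0.34 to 0.12 without single libraries (0.12 without Mdm2 C462A replicate 2). Suz12 turned from 0.07 to -0.0428 with sample weights and to -0.0414 without p53/Mdm2 KO replicate 2. The causes were not tested.

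Limma called 0 genes in the fit of the text and 1, Pla2g4b, with log2 of normalized reads plus 1, with a minimum mean of 50 reads or with no variance trend. It called 143 with sample weights (72 higher, 71 lower), 26 of them among the 126 genes selected for naming. The calls were 3 without both libraries (AK036843, Gm10406 and Ifi202b) and 0 without any single library. Weights learned from these 7 libraries lean on the same values they test. Genes at an unadjusted p under 0.05 numbered 636 higher, 1940 with sample weights and 392 to 1026 without single libraries; lower, the numbers were 691, 2011 and 454 to 937, and 422 with the Y-linked level as a covariate. Genes with no overlap numbered 994 to 1788 higher and 1002 to 1777 lower without single libraries, and 2242 and 2365 without both, since fewer libraries must be ordered. A gap of at least 1 was found for 12 higher and 17 lower genes with log2 of reads plus 1, 20 and 65 without both libraries, and 6 to 37 and 10 to 52 without single ones. With equal medians 943 lay higher and 688 lower.

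Replicate numbers occur in all groups. Deviations of same-numbered libraries from their group means had correlations of -0.16 to 0.20 across genes. In a group of 2 libraries the deviations mirror each other, so these values cannot tell whether the numbers pair the samples. With the replicate block limma called 0 genes, with 593 higher and 768 lower at an unadjusted p under 0.05. With 4 libraries against 3, an exact permutation test of 1 gene cannot go below p = 0.0571 (two-sided). Depth limits genes near 3 reads, such as Heyl, Hhip and Gsta3.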

Other observations

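Some genes of bone, cartilage and fat cells were separated, against 4.78% above and 4.87% below over all tested genes. Of 21 tested bone and cartilage genes 4 (19.05%) lay below all controls and 0 above, and without p53 KO replicate 1 and Mdm2 C462A replicate 2 it was 4 below and 4 above, where 14.0% of all tested genes lay below and 13.3% above. Tnfsf11, the cytokine RANKL that drives osteoclast formation, had 513, 436 and 452 normalized reads in p53 KO against 194, 332, 176 and 49.4 in p53/Mdm2 KO replicates 1 and 2 and Mdm2 C462A replicates 1 and 2. Acan, the cartilage proteoglycan aggrecan, had 701, 109.5 and 111 against 55.7, 63.1, 19 and 79.4, and Comp, a cartilage matrix protein, 115, 60.3 and 156 against 23.2, 25.8, 19 and 40.6. Among the controls p53 KO replicate 1 was the highest for Acan and the middle one for Comp. Col10a1, a collagen of growth plate cartilage, was the fourth, with a difference of -2.56. Of 21 tested adipogenic and lipid genes 2 (9.52%) lay above and 2 below, and 5 and 4 without those libraries. Fabp4, a fatty acid carrier of fat cells, had 4328, 174 and 161 against 71.4, 119.7, 141 and 97, with p53 KO replicate 1 far above all other libraries, where the adipocyte markers were also highest; Plin2, a lipid droplet coat protein, had 2610, 3332 and 2522 against 4076, 3613, 3878 and 3582.

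Ptgs1, cyclooxygenase 1, had 664, 2531 and 2091 normalized reads in p53 KO against 6360, 3583, 3681 and 6041, while the chemokine gene Cxcl1 had 521, 185 and 210.3 against 139, 131, 21.1 and 54.7; they were the 2 separated among 26 tested inflammatory genes (3.85% in each direction). Of 30 tested matrix proteases and inhibitors 3 (10.0%) lay below and 0 above, Mmp15, Adamts10 and Timp1, with differences of -0.72, -0.38 and -0.83. Of 22 tested YAP and TEAD target genes 2 (9.09%) lay below, Arhgef17 (7628, 8584 and 7587 against 5256, 5436, 5904 and 4741) and Tead3, and of 24 tested FoxO target genes 1 (4.17%) did, Foxo1, with a difference of -0.97. Among 20 tested immediate early factors Atf3 lay above and Egr2 below (5.0% each). For all tested genes these shares were 4.78% above and 4.87% below. Without both libraries 9 proteases (30.0%), 7 YAP and TEAD targets (31.8%) and 2 FoxO targets (8.33%) lay below and 0 above. Inflammatory genes had 2 (7.69%) in each direction. In that setting 14.0% of all tested genes lay below and 13.3% above. None of these genes passed limma's adjusted threshold.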
